A study of Mus musculus with 18 samples.

Results

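Immediate early genes are the genes that a cell transcribes first after a signal, from transcription machinery that is already in place. The 10 examined here were *Fos*, *Fosb*, *Jun*, *Junb*, *Egr1*, *Egr2*, *Egr3*, *Ier2*, *Atf3* and *Nr4a1*, taken by symbol from a table of 34244 named gene rows. They fill 11 rows, because *Junb* is listed in 2. RNA-seq was performed on whole mouse embryos of the FVB strain at E11.5, with 1 library from each of 9 embryos. The genotypes were Dnmt3b+/+, Dnmt3b-/- and Dnmt3bCI/CI, with 3 embryos each. Dnmt3b is a DNA methyltransferase. The Dnmt3b-/- embryos carried a conventional knockout allele obtained from a floxed line. The Dnmt3bCI/CI embryos carried a CRISPR knock-in that replaced a proline and a cysteine of the catalytic site by valine and aspartate, and so expressed a protein made to be catalytically inactive. Which litter each embryo came from is not given in the sources used here. The comparisons ask whether the loss of the protein and the loss of its catalytic activity leave the same mark on these genes.

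In the embryos labelled Dnmt3b-/-, *Fos* and *Fosb* stood many-fold above the other genotypes, *Ier2*, *Junb*, *Egr1*, *Atf3* and *Jun* stood above them by smaller steps, *Nr4a1* stayed within their range or just below it, and *Egr3* stood below them. In Dnmt3bCI/CI embryos all 10 lay close to Dnmt3b+/+. The members were put forward with these same 9 columns in view, so their levels are given as a description, with no p-value.

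The FOS and JUN proteins are basic leucine zipper factors that pair with each other as AP-1, and ATF3 is a related factor that pairs with JUN proteins. EGR1, EGR2 and EGR3 are zinc finger factors, NR4A1 is an orphan nuclear receptor, and IER2 is a small nuclear protein of the same early response. In the textbook pathway, growth factors and stress act through MAP kinases on ternary complex factors and SRF, which bind the serum response element and its core, the CArG box. Cyclic AMP and calcium act through CREB on the cyclic AMP response element. The transcripts are short-lived, and many hold AU-rich elements in the 3' UTR that speed their decay. In embryos, *Egr2* is also a patterning gene of the hindbrain and of Schwann cell precursors.

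The promoters of the members were searched for these control elements. RefSeq promoters (GRCm38.p6) were at hand for 7 of the 10 members, *Fos*, *Fosb*, *Jun*, *Junb*, *Egr2*, *Atf3* and *Nr4a1*, and the 500 bases upstream of the start were searched on both strands. This window was widened after a search of the bases from -250 to -1, so the counts for it are a description of a window chosen afterwards. The runs below read 5′ to 3′ on the gene's strand, with a CArG box and the sequence TGACGT or its complement in capitals. TGACGT is the core of the cyclic AMP response element. *Fos* is shown from chr12:85473540-85473839 on the plus strand, at -350 to -51 counted from the start of transcription. *Fosb* is shown from chr7:19310096-19310395 on the minus strand, also at -350 to -51. *Egr2*, which did not share their pattern, is shown from chr10:67537619-67537868 on the plus strand, the 250 bases before one of its listed starts.
Fos: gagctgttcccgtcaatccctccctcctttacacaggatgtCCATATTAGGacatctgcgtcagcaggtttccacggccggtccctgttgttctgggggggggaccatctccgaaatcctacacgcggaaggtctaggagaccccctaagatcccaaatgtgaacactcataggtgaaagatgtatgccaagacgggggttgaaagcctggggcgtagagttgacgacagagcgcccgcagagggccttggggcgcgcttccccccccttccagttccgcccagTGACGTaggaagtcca
Fosb: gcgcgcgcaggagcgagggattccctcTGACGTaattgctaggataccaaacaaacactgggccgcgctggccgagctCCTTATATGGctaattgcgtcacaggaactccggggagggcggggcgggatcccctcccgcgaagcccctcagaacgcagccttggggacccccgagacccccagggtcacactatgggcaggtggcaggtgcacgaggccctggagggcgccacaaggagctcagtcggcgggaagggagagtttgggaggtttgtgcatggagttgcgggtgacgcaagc
Egr2: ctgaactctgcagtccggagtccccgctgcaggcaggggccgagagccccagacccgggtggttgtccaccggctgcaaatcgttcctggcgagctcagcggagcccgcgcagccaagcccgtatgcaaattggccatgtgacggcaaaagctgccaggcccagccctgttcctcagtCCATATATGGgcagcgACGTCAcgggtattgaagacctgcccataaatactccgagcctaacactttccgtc

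A CArG box lay within these 500 bases in 3 of 7 members, *Fos*, *Fosb* and *Egr2*, against 3.04% of 27025 genes. Of these 3, *Egr2* alone had a box between -250 and -1. TGACGT lay within the 500 bases in 5 of 7, *Fos*, *Fosb*, *Jun*, *Egr2* and *Atf3*, against 10.6% of genes. In *Fosb* and *Jun* (-304 to -299) it lay only beyond -250. The full palindrome TGACGTCA, which contains TGACGT, was in 0 of 7 (2.15% of genes). So were the AP-1 site TGACTCA (9.15%) and the EGR site GCGTGGGCG (0.873%). In *Fos* the CArG box lay at -309 to -300 and TGACGT at -66 to -61. In *Fosb* they lay at -272 to -263 and -323 to -318. *Fosb*, the member with the largest ratio, and *Egr2*, which was not higher in the embryos labelled Dnmt3b-/-, thus hold the same pair of elements, and a match of letters in a window does not show that a factor binds there.

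Most of the 10 genes are short. By GENCODE M21 their median span was 5287 bases against 18300 bases for 21113 other protein-coding genes, and their main transcripts had a median of 2 exons against 7. *Atf3* (47744 bases) and *Nr4a1* (20527 bases, 8 exons) were the members above the medians of the other genes. *Jun*, *Junb* and *Ier2* have a single exon in the transcript with the longest coding sequence. *Fos* occupies chr12:85473890-85477273 on the plus strand and *Fosb* chr7:19302696-19310051 on the minus strand. *Junb* (chr8:84974484-84978718) and *Ier2* (chr8:84661331-84662852) lie on the minus strand of the same chromosome. The pentamer ATTTA, the core of AU-rich elements, occurred at a median of 2.59 per kb of 3' UTR against 1.13 in the other genes. Members had longer 3' UTRs, with a median of 1193 bases against 805, and the share that follows is not matched for length. The longer TATTTAT was found in the 3' UTR of 4 of 10 members against 25.5% of the other genes. The windows around it are shown for these 4 with ATTTA in capitals, at chr12:85477103-85477131 (plus) for *Fos*, chr7:19303326-19303354 (minus) for *Fosb*, chr4:95049079-95049107 (minus) for *Jun* and chr1:191170338-191170366 (minus) for *Atf3*.
Fos: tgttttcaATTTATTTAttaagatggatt
Fosb: ccacccccagctATTTAtccctttcctgg
Jun: ttgcttgtgcatATTTAtaatagcgttcg
Atf3: aaaatattacttATTTAtcccagtattcc
*Fos* alone among the 4 had overlapping copies of ATTTA in its window. *Ier2* had no ATTTA in its 3' UTR.

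Values are FPKM, read fragments per kilobase of exon scaled to the size of the library, as the authors deposited them. Totals behind the normalization ranged from 38451729 to 49808777 reads per library. The summed value of *Dnmt3b* was higher, not lower, in the embryos labelled Dnmt3b-/-, at 2.45, 3.12 and 3.33 FPKM. It was 2.25, 1.62 and 2.04 in Dnmt3b+/+ and 2.06, 1.98 and 2.32 in Dnmt3bCI/CI. A value summed over a gene cannot show a partial deletion, so the Dnmt3b-/- embryos are named by their label. The authors examined Dnmt3b protein by immunoblot in E11.5 embryos of these genotypes, which is not part of these data. Not every library held every tissue. The Dnmt3b+/+ embryo 2 was close to 0 for liver transcripts (*Afp* 0.119 FPKM against 23.8 to 93.3 in the other 8), and Dnmt3b+/+ embryo 1 and Dnmt3bCI/CI embryo 3 were low in the atrial transcript *Myl7* (0.645 and 0.705 FPKM against 10.9 to 40.4). Only 1 Dnmt3b+/+ embryo remains without these 3, and key values without them are given beside the results. In whole embryos, fewer cells that express a gene and less RNA per cell cannot be told apart.

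In Dnmt3b+/+ embryos the members spanned a wide range of levels per kilobase. *Jun* (23.0 ± 1.34 FPKM, SD, n = 3) and *Ier2* (14.5 ± 1.41) led, and no embryo's value of one overlapped the other's. *Junb* (2.72 ± 0.15), *Nr4a1* (2.30 ± 0.27) and *Egr1* (1.86 ± 0.246) followed, and the ranges of neighbours in this order touched. Below them, in this order and without overlap, came *Atf3* (0.601 ± 0.0294), *Fos* (0.404 ± 0.138), *Egr3* (0.179 ± 0.0151), *Egr2* (0.113 ± 0.0378) and *Fosb* (0.0468 ± 0.0216). In the embryos labelled Dnmt3b-/- the order changed: by its mean *Fos* moved from rank 7 to rank 3 with 5.64 ± 2.59 FPKM and *Fosb* from rank 10 to rank 7 with 1.95 ± 1.47, while *Ier2* drew level with *Jun* (29.6 ± 1.53 and 29.5 ± 0.737). The ranges of *Fos* and *Junb*, of *Fosb* and both its neighbours *Nr4a1* and *Atf3*, and of *Ier2* and *Jun* overlapped. *Fos* was below *Junb* in Dnmt3b-/- embryos 1 (3.25 against 5.81 FPKM) and 2 (5.29 against 5.33), and above it in embryo 3 alone. *Fosb* was below *Atf3* in embryo 1. The Dnmt3bCI/CI order was that of Dnmt3b+/+.

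**Figure D1:**
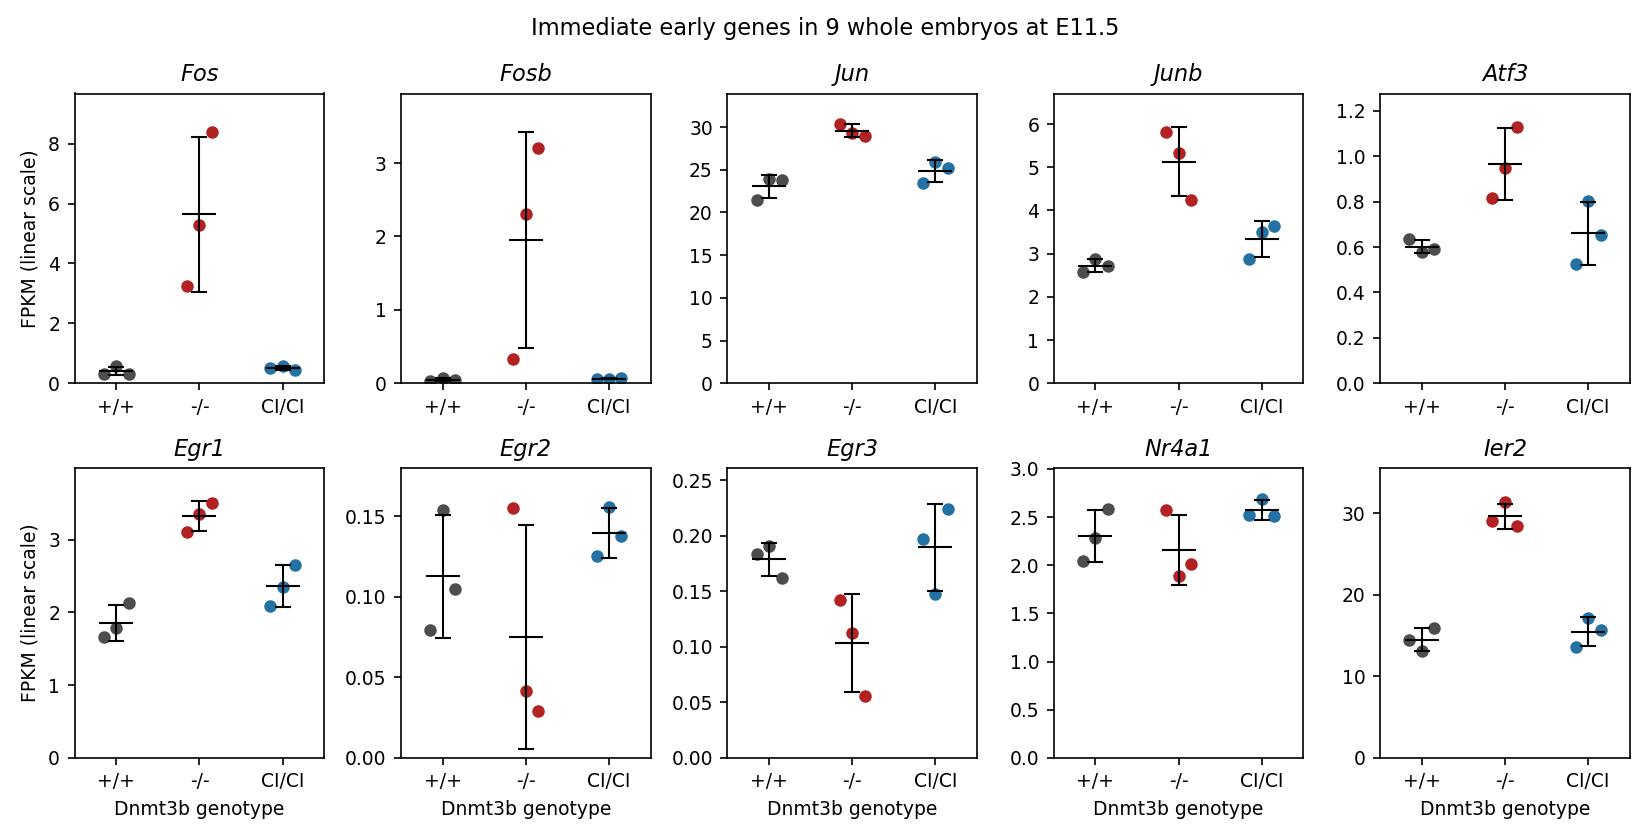
FPKM on linear axes from 0 (vertical, a scale per gene) for the 10 immediate early genes in 3 embryos of each Dnmt3b genotype (horizontal); points are embryos, horizontal bars the mean and error bars the SD. *Fos*, *Fosb*, *Ier2*, *Egr1*, *Junb*, *Jun* and *Atf3* show all 3 Dnmt3b-/- points above all others, and *Egr3* shows them below all others.

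*Fos* encodes the founding partner of JUN in AP-1. It measured 0.324, 0.563 and 0.325 FPKM in Dnmt3b+/+, 3.25, 5.29 and 8.39 in the embryos labelled Dnmt3b-/-, and 0.502, 0.560 and 0.442 in Dnmt3bCI/CI. Even the lowest Dnmt3b-/- embryo was 5.77 times the highest Dnmt3b+/+ embryo, and the ratio of the means was 14.0. The log2 difference was 3.44 (SE 0.32), with a pseudocount of 0.1 FPKM added to every value. It was 3.65 without the 3 embryos that lacked liver or atrial RNA. A pseudocount of 1 FPKM, which weighs down genes at low levels, gave 2.17. Reads behind these values numbered 30 to 66 per Dnmt3b+/+ library and 305 to 800 per Dnmt3b-/- library, so *Fos* was measured in all 9 embryos.

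*Fosb*, a close relative of *Fos*, was almost silent outside the embryos labelled Dnmt3b-/-. The Dnmt3b+/+ embryos measured 0.0287, 0.0707 and 0.0408 FPKM, the Dnmt3b-/- embryos 0.329, 2.30 and 3.21, and the Dnmt3bCI/CI embryos 0.0607, 0.0592 and 0.0667. The lowest Dnmt3b-/- value was 4.65 times the highest Dnmt3b+/+ value, and the 3 Dnmt3b-/- embryos differed among themselves by more FPKM than those of either other group. The 3 Dnmt3b+/+ libraries held 40 *Fosb* reads in all (exact 95% Poisson interval 28.6 to 54.5, counting error only) and the 3 Dnmt3b-/- libraries 1506 (1430 to 1580). The ratio of the means was 41.7 and the log2 difference 3.37 (SE 0.64). With pseudocounts of 0.01 and 1 FPKM it was 4.65 and 1.34. It was 4.27 without Dnmt3b-/- embryo 1, 3.03 without embryo 2 and 2.80 without embryo 3. *Fosb* passed the filter on low values, 0.1 FPKM in at least 3 of 9 embryos, through the Dnmt3b-/- embryos alone, so a difference was built into its passing.

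The JUN partners moved less than the FOS partners. *Jun* measured 21.5, 23.9 and 23.8 FPKM in Dnmt3b+/+, 30.4, 29.3 and 29 in the embryos labelled Dnmt3b-/-, and 23.4, 25.9 and 25.2 in Dnmt3bCI/CI. All 3 Dnmt3b-/- embryos lay above the other 6, by a log2 difference of 0.36 (SE 0.06) from Dnmt3b+/+. *Junb*, whose product can restrain as well as replace JUN, measured 2.58, 2.87 and 2.71 FPKM in Dnmt3b+/+, 5.81, 5.33 and 4.25 in Dnmt3b-/-, and 2.87, 3.50 and 3.65 in Dnmt3bCI/CI. Here too the Dnmt3b-/- embryos did not overlap the others, with a log2 difference of 0.88 (SE 0.13) and a ratio of means of 1.89.

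These *Junb* values come from a row whose length was inferred as 1809 bases, the smallest that gives whole reads. It was taken as the row of the single-exon coding transcript. The second row, inferred in the same way at 492 bases, was taken to cover a transcript that shares no base with it. It measured 0.728, 0.449 and 0.622 FPKM in Dnmt3b+/+ and 0.612, 0.765 and 0.451 in Dnmt3b-/-, from 9 to 16 reads per library. Its groups overlapped, with a log2 difference of 0.02 (SE 0.21).

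*Atf3*, a stress-induced factor that also answers to ATF4, measured 0.634, 0.578 and 0.592 FPKM in Dnmt3b+/+, 0.815, 0.95 and 1.13 in the embryos labelled Dnmt3b-/-, and 0.527, 0.804 and 0.652 in Dnmt3bCI/CI. The Dnmt3b-/- embryos were the 3 highest, but the lowest of them exceeded the highest Dnmt3bCI/CI embryo by a ratio of only 1.01. The log2 difference from Dnmt3b+/+ was 0.59 (SE 0.16) and fell to 0.29 with a pseudocount of 1 FPKM.

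The EGR genes parted from one another. *Egr1*, the best known of them as a growth factor response gene, measured 1.66, 1.78 and 2.13 FPKM in Dnmt3b+/+, 3.11, 3.36 and 3.51 in the embryos labelled Dnmt3b-/-, and 2.09, 2.35 and 2.66 in Dnmt3bCI/CI. The Dnmt3b-/- group stood above both others, with a log2 difference of 0.82 (SE 0.12) from Dnmt3b+/+. It was 0.62 without the 3 embryos that lacked liver or atrial RNA.

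*Egr3*, which shares the DNA site of EGR1, went the other way. It measured 0.183, 0.191 and 0.162 FPKM in Dnmt3b+/+, 0.142, 0.112 and 0.056 in the embryos labelled Dnmt3b-/-, and 0.197, 0.147 and 0.224 in Dnmt3bCI/CI. All 3 Dnmt3b-/- embryos were below all 6 others, by a log2 difference of -0.48 (SE 0.19) from Dnmt3b+/+. The reads were few, 106 in 3 Dnmt3b+/+ libraries (86.8 to 128) and 56 in 3 Dnmt3b-/- libraries (42.3 to 72.7). The difference was -0.82 with a pseudocount of 0.01 FPKM and -0.10 with 1 FPKM, and -0.30 without Dnmt3b-/- embryo 3.

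*Egr2* measured 0.0791, 0.154 and 0.105 FPKM in Dnmt3b+/+, 0.155, 0.0415 and 0.0290 in the embryos labelled Dnmt3b-/-, and 0.125, 0.156 and 0.138 in Dnmt3bCI/CI. In Dnmt3b-/-, embryo 1 lay beside the highest of the other genotypes and embryos 2 and 3 were the lowest of all 9, on 6 and 4 reads. The libraries held 52 *Egr2* reads in all in Dnmt3b+/+ (38.8 to 68.2), 31 in Dnmt3b-/- (21.1 to 44.0) and 60 in Dnmt3bCI/CI (45.8 to 77.2). By counting error the Dnmt3b-/- sum overlapped that of Dnmt3b+/+ and not that of Dnmt3bCI/CI, but it was made up of 21, 6 and 4 reads. The log2 difference was -0.33 (SE 0.26) with all embryos, -0.64 without Dnmt3b-/- embryo 1 and -0.15 without embryo 3.

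*Nr4a1* did not follow *Fos*. It measured 2.04, 2.28 and 2.58 FPKM in Dnmt3b+/+, 2.57, 1.89 and 2.01 in the embryos labelled Dnmt3b-/-, and 2.52, 2.69 and 2.51 in Dnmt3bCI/CI. The groups overlapped, the log2 difference was -0.09 (SE 0.13), and under quantile normalization its sign turned (0.05). *Ier2* measured 14.4, 13.1 and 15.9 FPKM in Dnmt3b+/+, 29.1, 31.4 and 28.5 in the embryos labelled Dnmt3b-/-, and 13.6, 17.1 and 15.7 in Dnmt3bCI/CI. The lowest Dnmt3b-/- value was 1.79 times the highest Dnmt3b+/+ value, and the log2 difference was 1.03 (SE 0.10). It fell just short of 1, a fold of 2, with quantile normalization (0.99), with 1 FPKM as the pseudocount (0.99), without Dnmt3b+/+ embryo 2 (0.96) and without Dnmt3b-/- embryo 2 (0.99), and was 0.89 without the 3 embryos that lacked liver or atrial RNA.

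The whole table was fitted with limma on log2(FPKM + 0.1), and a gene was called where it differed by a fold of 2 or more with a p under 0.05 after Benjamini-Hochberg adjustment. Of 19397 genes tested, 208 were called higher and 655 lower in Dnmt3b-/- against Dnmt3b+/+. Quantile normalization moved this split to 272 higher and 392 lower, and shifted the median log2 difference of all genes from -0.07 to 0.03. All 10 members passed the filter. Of these, 3 met the rule for higher, *Fos*, *Fosb* and *Ier2* (1.07% of all genes), and 0 for lower (3.38%). Under the adjusted p alone, 7 were higher (9.41%) and 0 lower (16.4%). All 3 Dnmt3b-/- embryos lay above all 3 Dnmt3b+/+ embryos for 7 members (15.1% of all genes) and below them for 1, *Egr3* (23.8%). The members were chosen on this contrast, so nothing is read from these counts. Ranked by log2 difference they ran from 3.44 to -0.48 with a median of 0.70, beside -0.07 for all genes.

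**Figure D2:**
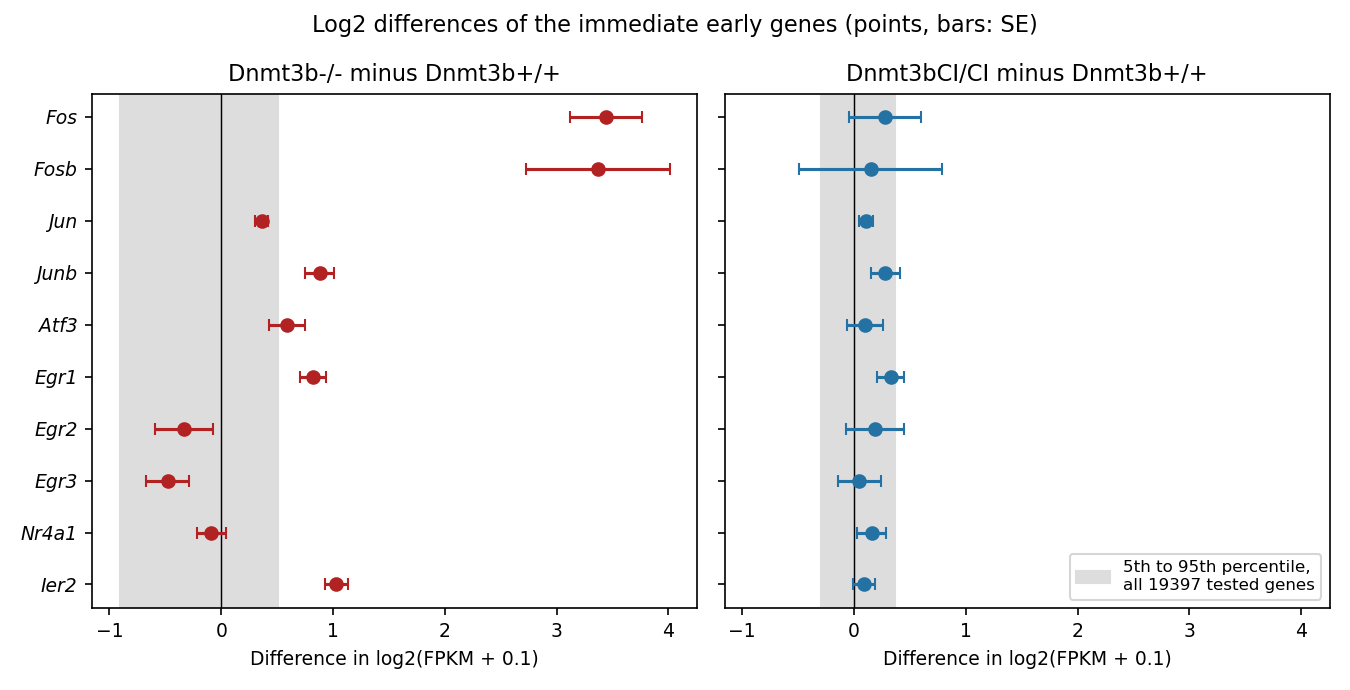
Difference in log2(FPKM + 0.1) from Dnmt3b+/+ (horizontal) of the 10 immediate early genes (vertical), for Dnmt3b-/- (left) and Dnmt3bCI/CI (right), 3 embryos each; bars are the SE of the fit, and the grey band holds the 5th to 95th percentile of 19397 genes (-0.91 to 0.51 on the left, -0.29 to 0.37 on the right). *Fos* (3.44) and *Fosb* (3.37) stand apart on the left, and all 10 points on the right lie between 0.05 and 0.33.

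With the catalytically inactive protein in place, the members stayed near the Dnmt3b+/+ level. Their log2 differences in Dnmt3bCI/CI ran from 0.05 for *Egr3* (SE 0.19) to 0.33 for *Egr1* (SE 0.12), with a median of 0.16 beside 0.02 for all genes. *Fos* differed by 0.28 (SE 0.32) and *Fosb* by 0.15 (SE 0.64), so for both the error exceeds the difference. The difference exceeded the error for *Egr1*, *Junb* (0.28, SE 0.13), *Jun* (0.11, SE 0.06) and *Nr4a1* (0.16, SE 0.13). No member's Dnmt3bCI/CI embryos all lay above or all below the Dnmt3b+/+ embryos (7.53% of all genes did so above and 5.65% below). In this comparison 25 of 19397 genes were called higher and 0 lower, or 524 higher and 495 lower at an unadjusted p under 0.05 by limma, and 0 members met the rule (0.129% higher and 0% lower) or the adjusted p alone (0.129% and 0.0155%). All 10 differences were above 0, but the members share the 3 Dnmt3b+/+ embryos, and *Egr3*, *Ier2* and *Atf3* turned below 0 under at least 1 alternative.

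Set directly against Dnmt3bCI/CI, the embryos labelled Dnmt3b-/- gave nearly the same order. The log2 differences were 3.22 (SE 0.64) for *Fosb*, 3.16 (SE 0.32) for *Fos*, 0.94 (SE 0.10) for *Ier2*, 0.60 (SE 0.13) for *Junb* and 0.48 (SE 0.12) for *Egr1*. *Atf3* (0.49), *Jun* (0.25), *Nr4a1* (-0.25), *Egr3* (-0.52) and *Egr2* (-0.52) made up the rest. The Dnmt3b-/- embryos lay above all Dnmt3bCI/CI embryos for 7 members (16.7% of all genes) and below them for *Egr3* (29.5%). By the rule, 2 members were higher, *Fos* and *Fosb* (1.1% of all genes), and 0 lower (4.32%). By the adjusted p alone 6 were higher (9.7%) and 0 lower (18.2%). Nothing is read from these counts either. The 3 comparisons share their groups of embryos and are not independent of one another.

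Within the embryos labelled Dnmt3b-/-, embryos 1 and 3 were the extremes for 8 of the 10 members. Embryo 1 was the lowest of its group for *Fos*, *Fosb*, *Egr1* and *Atf3* and the highest for *Jun*, *Junb*, *Egr2*, *Egr3* and *Nr4a1*. Embryo 3 was the highest for the first 4 and the lowest for *Jun*, *Junb*, *Egr2*, *Egr3* and *Ier2*. Embryo 2 was the highest for *Ier2* and the lowest for *Nr4a1*. Within this group the spread was widest for *Fosb*, with an SD of 1.58 in log2(FPKM + 0.1), followed by 0.67 for *Fos*, and was 0.04 for *Jun* and 0.07 for *Ier2*. The other genotypes lay below the pseudocount for *Fosb*, which narrows their spread on this scale, so it is not set beside theirs. *Fosb* reached 10.1% of the *Fos* level in Dnmt3b-/- embryo 1, as in the other genotypes (8.86% to 15.1%), but 43.5% and 38.3% in embryos 2 and 3. These are values of single embryos and were not tested.

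Because AP-1 is built from families, the remaining relatives were looked at too, singled out after their values were seen. *Fosl2*, a FOS relative that lacks a strong activation domain, fell from 2.05 ± 0.0843 FPKM in Dnmt3b+/+ to 1.04 ± 0.0858 in the embryos labelled Dnmt3b-/- (log2 difference -0.92, SE 0.09, limma adjusted p = 0.000475, lower in 3 of 3 embryos). In Dnmt3bCI/CI it measured 2.11 ± 0.0912. Over the alternatives its adjusted p ranged from 0.000409 to 0.0657, the last with the 1 Dnmt3b+/+ embryo that held both liver and atrial RNA. *Fosl1* measured 0.984 ± 0.124, 0.604 ± 0.243 and 0.835 ± 0.0562 FPKM in the same order of genotypes (adjusted p = 0.0507 by limma for Dnmt3b-/- against Dnmt3b+/+). *Jund*, the most abundant JUN transcript, measured 137 ± 20.5, 155 ± 26.5 and 138 ± 13.4 FPKM and did not pass (adjusted p = 0.39, limma).

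The make-up of the FOS family therefore differed between embryos. *Fos* and *Fosb* together made up 10.5%, 17.9% and 10.3% of the summed FPKM of *Fos*, *Fosb*, *Fosl1* and *Fosl2* in Dnmt3b+/+. They made up 64.4%, 82.8% and 89.4% in the embryos labelled Dnmt3b-/-, and 16.4%, 16.8% and 15.0% in Dnmt3bCI/CI. The family sum was 3.49 ± 0.113, 9.25 ± 3.72 and 3.51 ± 0.157 FPKM. Since *Fos* and *Fosb* were chosen for their levels, their shares are a description only. In the JUN family, *Jund* held 80.1% to 85.5% of the sum in every embryo.

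**Figure D3:**
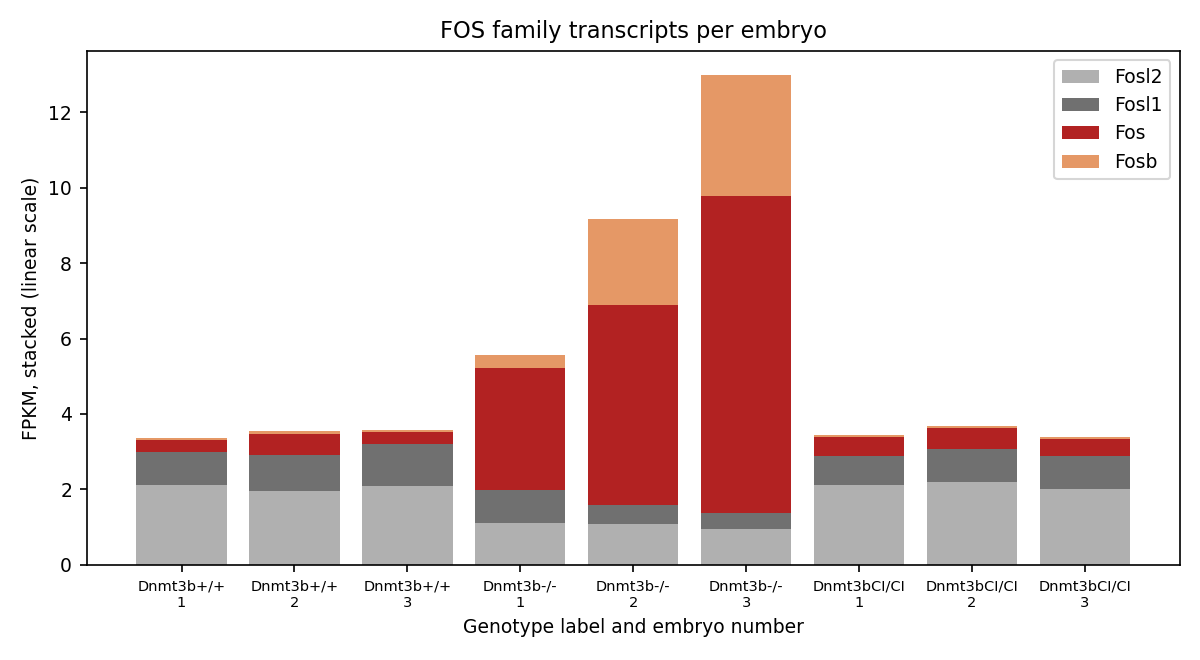
Stacked FPKM (vertical, linear) of *Fosl2*, *Fosl1*, *Fos* and *Fosb* in each of the 9 embryos (horizontal, by genotype label and number). The 6 Dnmt3b+/+ and Dnmt3bCI/CI bars reach 3.36 to 3.69 FPKM and are mostly *Fosl2* and *Fosl1*; the Dnmt3b-/- bars reach 5.56, 9.18 and 13.0 FPKM and are mostly *Fos* and *Fosb*.

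Among other immediate early genes, calls went both ways, at shares near those of all genes. Of 45 listed genes, 43 were tested (*Egr4* and *Ptgs2* were below the filter), 6 rose and 8 fell in Dnmt3b-/- against Dnmt3b+/+ at an adjusted p under 0.05 (9.41% and 16.4% of all genes), with a median log2 difference of -0.03 beside -0.07 for all genes. The split turned with the scaling, to 11 higher and 5 lower with median-of-ratios scaling and 10 higher and 4 lower with quantile normalization. Only 2 of them also passed the fold of 2. *Cyr61*, a matricellular protein gene induced by SRF and YAP, rose from 7.22, 7.19 and 7.15 FPKM to 14.7, 19.9 and 22 (log2 difference 1.36, SE 0.13, limma adjusted p = 0.000461, higher in 3 of 3 embryos). *Dusp5*, a nuclear phosphatase that switches off ERK, rose from 0.589, 0.585 and 0.619 FPKM to 1.30, 1.58 and 1.31 (1.09, SE 0.13, limma adjusted p = 0.00126, higher in 3 of 3 embryos). The groups did not overlap for either gene. In Dnmt3bCI/CI they measured 8.53 ± 0.418 and 0.791 ± 0.127 FPKM, all 3 embryos above Dnmt3b+/+, without passing the adjusted p (0.949 and 0.889, limma). The adjusted p was 0.0694 for *Cyr61* and 0.0892 for *Dusp5* with the single Dnmt3b+/+ embryo that held both liver and atrial RNA, at log2 differences of 1.37 and 1.05. With 1 FPKM as the pseudocount *Dusp5* differed by 0.58, short of a fold of 2. The other 4 that rose were *Dusp1*, *Maff*, *Csrnp1* and *Socs3*, by 0.30 to 0.46 on the log2 scale. *Csrnp1* and *Socs3* each lost the adjusted p in 10 of 18 alternatives, *Maff* in 9 and *Dusp1* in 1. Those that fell were *Fosl2*, *Nr4a3*, *Klf4*, *Myc*, *Gem*, *Per1*, *Klf6* and *Klf10*, by -0.92 to -0.21. Of 18 alternatives, *Klf10* lost the adjusted p in 11, *Gem* and *Klf6* in 8 each, *Myc* in 4, *Klf4* in 3, and *Fosl2* and *Per1* in 1 each. *Nr4a3*, a close relative of *Nr4a1*, went from 0.432 ± 0.0716 to 0.217 ± 0.0642 FPKM (-0.76, SE 0.18, limma adjusted p = 0.0184, lower in 3 of 3 embryos). It lost the threshold in 6 of 17 alternatives, among them without Dnmt3b+/+ embryo 2 and without Dnmt3b-/- embryo 2 or 3, with adjusted p up to 0.233, and its log2 difference ranged from -0.98 to -0.23. These 12 are named because they passed the adjusted p, after their values were seen. With the single complete Dnmt3b+/+ embryo, 0 of the 43 passed by limma. The list gave 3 genes higher without Dnmt3b+/+ embryo 2 or 3 or Dnmt3b-/- embryo 2 or 3. It gave 4 lower without Dnmt3b+/+ embryo 2, and 3 without Dnmt3b+/+ embryo 3 or Dnmt3b-/- embryo 2.

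The machinery around the members showed small differences. Among 9 AP-1 partners of the ATF, CREB and BATF type, 0 rose and 2 fell (9.41% and 16.4% of all genes), *Atf7* and *Jdp2*, neither by a fold of 2. The larger difference was that of *Atf7* (3.83 ± 0.231 to 2.41 ± 0.211 FPKM, log2 difference -0.65, SE 0.09, limma adjusted p = 0.0025, lower in 3 of 3 embryos). *Jdp2*, a repressor that pairs with JUN, differed from Dnmt3b+/+ by -0.61 (limma adjusted p = 0.0494) and lost the threshold in 15 of 18 alternatives, with adjusted p from 0.00442 to 0.352. It passed the fold of 2 against Dnmt3bCI/CI, at 2.34 ± 0.75 against 4.90 ± 0.499 FPKM (-1.08, limma adjusted p = 0.00585). Dnmt3b+/+ measured 3.51 ± 0.0351 FPKM, and all 3 Dnmt3bCI/CI embryos lay above it (0.46, limma adjusted p = 0.931). The log2 difference of Dnmt3b-/- from Dnmt3bCI/CI ranged from -1.30 to -0.84 over the alternatives. It was short of a fold of 2 with median-of-ratios scaling and quantile normalization among others. Of 18 kinases and factors that act upstream, such as ERK, p38, SRF and its cofactors, 3 rose and 5 fell (9.41% and 16.4% of all genes), all by log2 differences between -0.43 and 0.40, with a list median of -0.13. The largest difference was that of *Elk4*, a ternary complex factor (3.61 ± 0.417 to 2.65 ± 0.0948 FPKM, -0.43, SE 0.10, limma adjusted p = 0.0172, lower in 3 of 3 embryos). It lost the threshold in 4 of 18 alternatives, among them without Dnmt3b+/+ embryo 3 and without Dnmt3b-/- embryo 2. Without Dnmt3b+/+ embryo 2 or Dnmt3b-/- embryo 2, 1 was higher. The number lower was 3 without Dnmt3b+/+ embryo 2, 1 without Dnmt3b+/+ embryo 3, and 2 without Dnmt3b-/- embryo 2 or 3. With the single complete Dnmt3b+/+ embryo, limma called 0 in either direction.

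*Dusp6*, a phosphatase that ERK signalling itself induces, was the 1 gene of 4 to pass among the EGR corepressors and MAP kinase phosphatases (9.41% of all genes were higher and 16.4% lower). It rose from 7.89 ± 0.846 to 13.6 ± 1.30 FPKM (log2 difference 0.78, SE 0.10, limma adjusted p = 0.00168, higher in 3 of 3 embryos), short of a fold of 2. Its Dnmt3bCI/CI level was 8.24 ± 0.438 FPKM.

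Of 22 genes counted as downstream of AP-1 and EGR, 16 were tested, 1 rose and 3 fell (9.41% and 16.4% of all genes), with a median log2 difference of -0.01 and a range from -1.47 to 0.83. The 1 that rose was cyclin D1, *Ccnd1*. *Mmp9*, a matrix protease, passed the fold of 2 and fell, from 0.684, 0.879 and 1.03 FPKM to 0.482, 0.193 and 0.139 (log2 difference -1.47, SE 0.30, limma adjusted p = 0.0106, lower in 3 of 3 embryos). With 1 FPKM as the pseudocount the difference was -0.56, short of a fold of 2. The genes that fell, *Mmp9*, *Cd44* and *Spp1*, are also known to be transcribed by macrophages. The summed level of 6 macrophage markers was 9.29 to 12.9 FPKM in the embryos labelled Dnmt3b-/- against 13.8 to 15.5 in Dnmt3b+/+, with 3 of 6 markers lower by adjusted p. The part of macrophage RNA in the result was not tested. *Cd44* and *Spp1* lost the adjusted p in 8 and 14 of 17 alternatives. Of 8 cytoskeletal SRF targets, 1 was called in each direction (9.41% and 16.4% of all genes): the actin gene *Actg1* was higher by 0.25 (limma adjusted p = 0.049975) and *Acta2* fell. *Actg1* lost the threshold in 15 of 18 alternatives, with adjusted p from 0.0213 to 0.381, among them every run that left out 1 embryo. The largest difference was that of smooth muscle actin, *Acta2* (38.4 ± 7.18 to 21.5 ± 4.58 FPKM, -0.84, SE 0.19, limma adjusted p = 0.0165, lower in 3 of 3 embryos), and without Dnmt3b+/+ embryo 3 its adjusted p was 0.0594.

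Stress genes were looked at because they often accompany *Fos* and *Atf3*. Of 11 heat shock genes, 5 rose and 0 fell (9.41% and 16.4% of all genes), none by a fold of 2, with a median log2 difference of 0.34. The largest difference was *Hsp90aa1*, a cytosolic chaperone (98.5 ± 11.3 to 149 ± 19.0 FPKM, 0.59, SE 0.11, limma adjusted p = 0.00882, higher in 3 of 3 embryos). The count was 3 with quantile normalization and without Dnmt3b+/+ embryo 2 or Dnmt3b-/- embryo 3, 2 without Dnmt3b-/- embryo 2, and 0 by limma with the single complete Dnmt3b+/+ embryo. With that embryo the limma adjusted p was also 0.0816 for *Dusp6*, 0.0914 for *Atf7*, 0.152 for *Mmp9* and 0.106 for *Acta2*. Of 7 ATF4 response genes, 2 passed as higher, *Sesn2* and *Trib3*, and 0 fell (9.41% and 16.4% of all genes). *Trib3*, a pseudokinase gene induced by ATF4, went from 0.688 ± 0.1 to 1.23 ± 0.473 FPKM (0.70, SE 0.22, limma adjusted p = 0.0474, higher in 3 of 3 embryos). It lost the threshold in 13 of 17 alternatives, with adjusted p from 0.022 to 0.233, and the list then gave 1 gene without any single Dnmt3b+/+ or Dnmt3bCI/CI embryo and without Dnmt3b-/- embryo 3. *Sesn2*, a sensor of amino acid shortage that p53 also induces, rose from 3.42, 3.24 and 3.18 FPKM to 8.87, 9.70 and 9.09 (1.46, SE 0.07, limma adjusted p = 1.25e-05, higher in 3 of 3 embryos), and its adjusted p stayed at or below 0.00747 over 18 alternatives. In Dnmt3bCI/CI against Dnmt3b+/+, limma found 0 of the 116 tested genes of these lists past an adjusted p of 0.05, and 11 at an unadjusted p under 0.05.

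**Figure D4:**
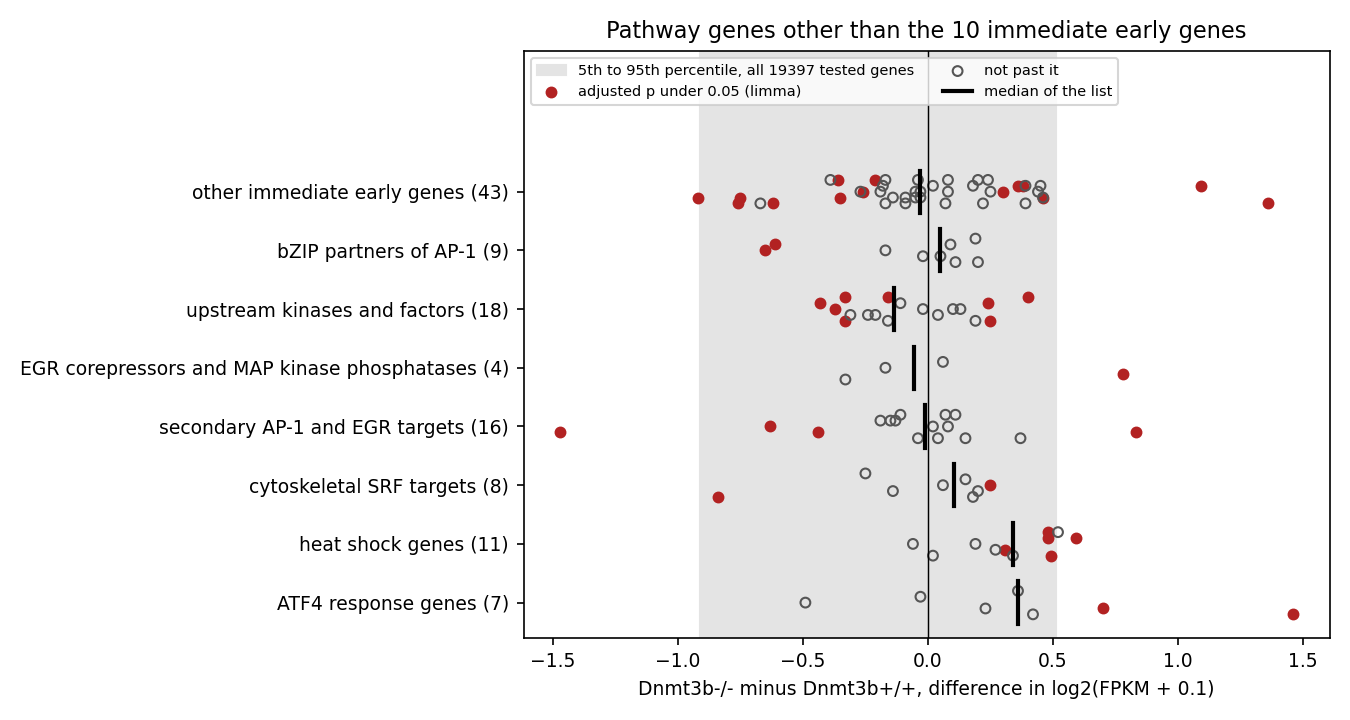
Difference in log2(FPKM + 0.1) between Dnmt3b-/- and Dnmt3b+/+ (horizontal) for tested genes of 8 lists around the immediate early genes (vertical, number of genes in brackets); filled points passed an adjusted p under 0.05 by limma, open points did not, black bars are list medians and the grey band holds the 5th to 95th percentile of all 19397 genes. The list medians lie between -0.13 and 0.36, and *Cyr61* (1.36), *Dusp5* (1.09), *Sesn2* (1.46) and *Mmp9* (-1.47) are the points beyond 1 on either side.

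The genes nearest to the members in profile were found by the root mean square distance over the 9 embryos between each gene's centred log2(FPKM + 0.1) values and the mean of the 10 members. This mean is unweighted. *Fos* and *Fosb* differ most in it, and *Nr4a1*, *Egr2* and *Egr3* go the other way. A near gene therefore lies close to the average and need not follow any one member. Among 12790 other genes with a mean of at least 1 FPKM, the 10 nearest were *Map4k1*, *Crabp1*, *Crabp2*, *Etv4*, *Fam162a*, *Mapk12*, *Gapdh*, *Ccnd1*, *Aen* and *Ldha*, at distances of 0.0840 to 0.120. They include a kinase upstream of JNK and a stress-activated kinase (*Map4k1* and *Mapk12*), an ETS factor that follows FGF signalling (*Etv4*), 2 glycolytic enzymes (*Gapdh* and *Ldha*) and cyclin D1 (*Ccnd1*). *Etv4* measured 2.54, 2.39 and 2.95 FPKM in Dnmt3b+/+, 4.36, 5.72 and 5.52 in the embryos labelled Dnmt3b-/-, and 2.76, 3.11 and 2.92 in Dnmt3bCI/CI. They were picked for this pattern, so their levels carry no test.

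Levels of tissue marker RNAs differed in the same contrast, in which 9.41% of all genes were higher and 16.4% lower by the adjusted p. In the embryos labelled Dnmt3b-/-, all 6 skeletal muscle markers were lower, with a summed level of 24.3 to 62.2 FPKM against 69.8 to 112 in Dnmt3b+/+. Of 6 mesenchyme markers 4 were lower and 1 higher, with sums of 213 to 232 against 290 to 342 FPKM. Of 6 neural crest and glial markers 2 were lower (8.03 to 21.6 against 19.4 to 26.3 FPKM), and of 6 red cell markers 2 were higher (2210 to 6940 against 2240 to 2850 FPKM). Of 6 neuronal markers 1 was lower (141 to 269 against 171 to 335 FPKM), and so was 1 of 6 hepatocyte and yolk sac markers (44.4 to 91.7 against 35.8 to 228 FPKM), both at about the share of all genes. None of the 6 endothelial (30.5 to 33.5 against 30.8 to 34.9 FPKM) and none of the 6 heart muscle markers passed by limma (1 and 0 at an unadjusted p under 0.05). The part of these differences in the levels of the immediate early genes was not tested.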

How the data were processed

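The authors isolated total RNA from whole embryos, sequenced it on a NovaSeq instrument as paired-end reads, aligned trimmed reads to mm10 with STAR and quantified genes in SeqMonk. They deposited FPKM per gene and embryo on a linear scale, normalized to library and gene length, in 1 table of 34245 rows. A row without a gene name was left out. Genes without reads carry a floor worth 0.9 reads. FPKM is not a count, so the study's count test (DESeq2, by the authors) was not run. Read numbers of the members were worked back from the FPKM steps (whole within 0.001 of a read) and used for depth only. For the *Junb* rows and *Nr4a1* the gene length itself was chosen to give whole reads, so there wholeness is no check. Versions of the aligner and the annotation release are not given in the sources used here.

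Genotypes came from the sample labels. Genes with at least 0.1 FPKM in 3 of 9 embryos (19397) entered the limma fit (version 3.58.1, R 4.3.3) as log2(FPKM + 0.1), with all 9 embryos, 3 genotypes and a variance trend. The pseudocount shrinks differences of low genes. In simulated data of 19397 genes, 200 were altered in Dnmt3b-/- against Dnmt3b+/+. At a true log2 difference of 1, 43% were called and 78.5% passed the adjusted p alone. At 2, 92.5% were called and 93% passed. A true difference of 1 sits on the fold threshold itself, so many estimates fall short of it by construction. The changes were planted on the log2(FPKM + 0.1) scale with independent noise, so shrinkage by the pseudocount was not simulated. Members are named in full; from each list up to 5 genes past the thresholds, or else the gene with the largest difference, and the 10 nearest profiles. Genes named beyond this rule were chosen with their values known. The members and lists were chosen with earlier results of these data known. Promoters are RefSeq's, extended to 500 bases on the same genome after a shorter window had been searched, and gene models GENCODE M21. Python was 3.11.15, with pandas 2.3.3, numpy 2.4.6 and scipy 1.17.1. Same-numbered embryos did not deviate together, and the fit has no block. Bisulfite libraries and lymphoma lines were not analysed here.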

Additional observations from a re-analysis of the deposited data

How the results depend on the processing

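Over 18 alternatives, 1 of them chosen after seeing the data (only the 6 embryos with both heart and liver RNA), the 7 members that were higher in Dnmt3b-/- than in Dnmt3b+/+ stayed higher, and *Egr2* and *Egr3* stayed lower, wherever the filter kept them. *Nr4a1* changed sign under quantile normalization (-0.09 to 0.05), as did the short *Junb* row without Dnmt3b+/+ embryo 2 or Dnmt3b-/- embryo 2 and with the 6 embryos. With a pseudocount of 1 FPKM, 60 genes were called higher and 133 lower in Dnmt3b-/- against Dnmt3b+/+, 8 higher in Dnmt3bCI/CI against Dnmt3b+/+, and 57 higher and 185 lower in Dnmt3b-/- against Dnmt3bCI/CI. With 0.01 FPKM, 1028 were called lower in Dnmt3b-/- against Dnmt3b+/+. With at least 1 FPKM in 3 of 9 embryos, where 6 member rows remain, the first comparison gave 96 and 388 and the third 105 and 492, with 1 member. Quantile normalization gave 392 lower in the first, and 330 higher and 495 lower in the third. With the 6 embryos, where a lone Dnmt3b+/+ embryo is assumed to vary like the others, the counts were 74, 79 and 0 members in the first comparison, 6 higher in the second and 1 member in the third. Leaving out 1 embryo at a time gave 171 to 253 higher, 427 to 1174 lower and 2 to 4 members in the first comparison, 18 to 26 higher and 0 to 2 lower in the second, and 185 to 258 higher, 563 to 1346 lower and 2 to 3 members in the third. Without Dnmt3b-/- embryo 1, 1174 and 1346 genes were lower, and without Dnmt3b-/- embryo 3, 427 and 563. Same-numbered embryos shared only a number (mean correlation of deviations -0.0865 against 0.0478 for other pairs), and the replicate block gave 199 higher and 539 lower, 17 and 0, and 194 and 732. It changed no count of members under the call rule. Of the list genes past the adjusted p in the main comparison, none changed direction in any alternative.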
